A study of Homo sapiens with 26 samples.

Results

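The FOS, JUN and EGR immediate early genes were followed as 10 rows of the deposited count tables, chosen by gene symbol alone, among the 26485 genes of each table. They comprise 4 genes of the FOS family (FOS, FOSB, FOSL1 and FOSL2), 3 of the JUN family (JUN, JUNB and JUND) and 3 of the EGR family (EGR1, EGR2 and EGR3). They were read in KELLY, a human neuroblastoma cell line that carries MYCN amplification, transduced with the lentiviral vector FH1UTG (F1HUTG in the labels), which carries GFP and a doxycycline-inducible hairpin cassette. The cassette was empty in the EV line and held a hairpin against RUNX1T1 in the sh4 and shAMB lines. Each line was grown for 72 h with DMSO or with doxycycline, 3 libraries each, which gave 18 libraries in 6 groups. The other 8 libraries came from KELLY tumors, which the labels call PDX, namely 4 labelled WT on control food and 4 labelled RUNX1T1 KO on doxycycline food. Per the methods of the study these were subcutaneous tumors in female NOD SCID gamma mice, which lack lymphocytes, and the cells carried an inducible hairpin rather than a deletion. The labels name no hairpin for the tumors. The study gives it as the shRNA used both in vitro and in vivo, built on an Ambion siRNA sequence, and the labels do not tie that name to shAMB or sh4. No tumor group had doxycycline food without a hairpin, so that food and hairpin cannot be told apart there. All culture lines carry the vector, and all doxycycline groups received the drug. The culture columns are headed Neg and Pos, and only these words were used to take them for DMSO and doxycycline. Nothing in the labels says that replicates were separate cultures, so that p-values measure the spread between these libraries, which may be technical. In RNA from whole cultures or tumors, fewer cells that express a gene and less RNA per cell cannot be told apart.

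FOS and JUN proteins pair through leucine zippers into AP-1, a transcription factor that binds short palindromic sites. EGR proteins are zinc finger factors that bind GC-rich sites. Many of these genes are switched on within minutes of a growth factor, calcium or stress signal, before any new protein is made. Kinases of the MAP kinase pathways act on serum response factor and its partners at CArG boxes, and CREB and JUN complexes act at related sites. In sympathetic neurons and their tumors the genes are known as part of the response to nerve growth factor and to depolarization. FOSL2 and JUND are usually less tied to acute stimulation than FOS, FOSB, JUNB and EGR1.

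The sequences ahead of the start sites are given as a description, and any relation to the size of a change was not tested. They were read from hg38 for the 7 members with an entry in the RefSeq promoter table, in windows from 500 bases before to 50 bases after the start site. FOSL1, EGR2 and EGR3 had no entry. Letters were matched on both strands. A CArG box was found in 3 of the 7 windows, those of FOS, FOSB and EGR1, and in 2.56% of 35116 promoters of this length. EGR1 held 5 such boxes and FOS and FOSB held 1 each. In the lines below, 25 bases are given in the direction of transcription, with the box in capitals. The EGR1 boxes lay between 418 and 74 bases before its start, and some EGR1 windows share bases.
FOS chr14:75278507-75278531 (+): aggatgtCCATATTAGGacatctgc
FOSB chr19:45467715-45467739 (+): ccgagctCCTTATATGGctaattgc
EGR1 chr5:138465054-138465078 (+): ggaaatgCCATATAAGGagcaggaa
EGR1 chr5:138465092-138465116 (+): gaacaacCCTTATTTGGgcagcacc
EGR1 chr5:138465108-138465132 (+): ggcagcaCCTTATTTGGagtggccc
EGR1 chr5:138465367-138465391 (+): ggtcctgCCATATTAGGgcttcctg
EGR1 chr5:138465389-138465413 (+): ctgcttcCCATATATGGccatgtac

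The CREB and JUN type of site, TGACNTCA, was found in FOSB, JUN and JUND, against 11.7% of all promoters, and is in capitals in the following lines.
FOSB chr19:45467663-45467687 (+): attccctcTGACGTCAttgctagga
JUN chr1:58784098-58784122 (-): ccttggggTGACATCAtgggctatt
JUND chr19:18281806-18281830 (-): cgcccccaTGACGTCAacccacaag
The shorter AP-1 site TGANTCA was in FOSL2 alone (13% of all promoters). The EGR type of site GCGNGGGCG was in FOSB, JUND and EGR1 (12.1%), and TATAAA in FOS, FOSB and JUNB (21.8%). These matches describe letters and show no binding.

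Total expected counts ranged from 35115915 to 54736733 in culture and from 47346063 to 62378060 in the tumors. RUNX1T1 RNA, the hairpin target, had an adjusted p above 0.05 wherever doxycycline was set against its control. Its log2 change was -0.16 in EV (adjusted p = 0.672), -0.11 in sh4 (adjusted p = 0.118), 0.06 in shAMB (adjusted p = 0.378) and -0.23 in the tumors (adjusted p = 0.229), and groups are therefore called by their labels. Its level was 39.3 to 44.1 CPM with DMSO and 36.5 to 38.6 CPM with doxycycline in EV, 33.3 to 35.0 and 30.1 to 33.9 CPM in sh4, 39.9 to 42.0 and 41.3 to 44.1 CPM in shAMB, and 30.002 to 43.1 CPM in control and 24.3 to 35.2 CPM in KO-labelled tumors. With DMSO it was already lower in sh4 than in EV (log2 difference -0.29, adjusted p = 0.0144). The shAMB effect on RUNX1T1 was above the EV effect by 0.21 (SE 0.08, adjusted p = 0.0353). Without replicate 2 of sh4 with doxycycline the sh4 value was -0.16 (adjusted p = 0.0434), and with trends in GC content and length removed it was -0.28 (adjusted p = 0.000368) and the tumor value -0.30 (adjusted p = 0.0308). These values concern RNA only. The study itself reported lower RUNX1T1 levels in KELLY cells after 72 h of doxycycline with each of its hairpins. It also reported loss of RUNX1T1 by immunostaining in KELLY tumors. Protein was not measured in the libraries read here. All 14 sympathetic neuroblastoma markers reached 1 CPM in every group. Their summed level was higher with shAMB and doxycycline (9932 to 10795 CPM) than with shAMB and DMSO (5749 to 6043 CPM), and higher in the KO-labelled tumors (8852 to 12209 CPM) than in control tumors (6012 to 7175 CPM). HBA1, HBA2 and HBB, of red blood cells, were at 0 in every tumor. The 7 macrophage and leukocyte markers summed to 1.17 to 1.63 CPM in control tumors and 1.86 to 2.81 CPM in KO-labelled tumors, and to 0.650 to 0.776 CPM and 1.52 to 2.33 CPM in shAMB with DMSO and with doxycycline. The 6 endothelial markers summed to at most 2.34 CPM in any library. The 8 fibroblast markers summed to 58.0 to 94.98 CPM in control and 86.2 to 129 CPM in KO-labelled tumors. In culture they reached similar sums, with 75.1 to 89.6 CPM in EV with DMSO and 101 to 140 CPM in sh4 with doxycycline. In shAMB they were at 77.7 to 91.9 CPM with DMSO and 89.2 to 107 CPM with doxycycline. The part of these levels, and of any mouse reads, in the results was not tested.

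Doxycycline with the shAMB hairpin raised FOS, FOSB, FOSL2, JUN, JUNB and EGR1 and lowered JUND. Doxycycline with the sh4 hairpin raised FOSB and EGR1 and lowered JUND by 1.16-fold, the last with the opposite sign once trends in GC content and length were removed, and the KO-labelled tumors had more FOS, FOSB, JUN and EGR1 and less JUND. The empty vector with doxycycline changed none of them. A gene is called changed here at an adjusted p under 0.05 in the quasi-likelihood F test of edgeR, over all genes tested. Expression sufficed for a test of 7 members in culture and of 8 in the tumors. In EV, 0 of 7 members changed, where 0.0939% of all tested genes did (2 members had an unadjusted p under 0.05, and DESeq2 called 0). In sh4, 3 of 7 changed against 40.9% of all genes, with 2 higher against 22.9% and 1 lower against 18%. In shAMB, 7 of 7 changed against 66% of all genes, with 6 higher against 37.6% and 1 lower against 28.4%. In the tumors, 5 of 8 changed against 41.1%, with 4 higher against 21.2% and 1 lower against 19.9%. FOSB passed the expression filter in culture only through the sh4 and shAMB doxycycline groups, so it had to differ there and its call adds nothing to these counts. With the trends in GC content and length removed, the higher genes were 45.5% rather than 56.0% of all sh4 calls, and 67.1% rather than 56.9% of all shAMB calls.

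The tested members had a median log2 change of 0.06 in EV, against 0.01 over all genes tested, and of 0.11 in sh4, against -0.00. Their medians were 1.37 in shAMB and 0.94 in the tumors, against 0.10 and 0.02 over all genes. The culture medians include FOSB, which the expression filter admitted only through the sh4 and shAMB doxycycline groups. With FOSB set aside, the sh4 median would lie between the values of JUN (-0.13) and FOSL2 (0.11). That of sh4 thus shows no shift of the members, and that of shAMB would lie between FOSL2 (1.30) and JUNB (1.37). The plot of fitted differences shows that the members spread widely around their medians in shAMB and in the tumors.

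**Figure D1:**
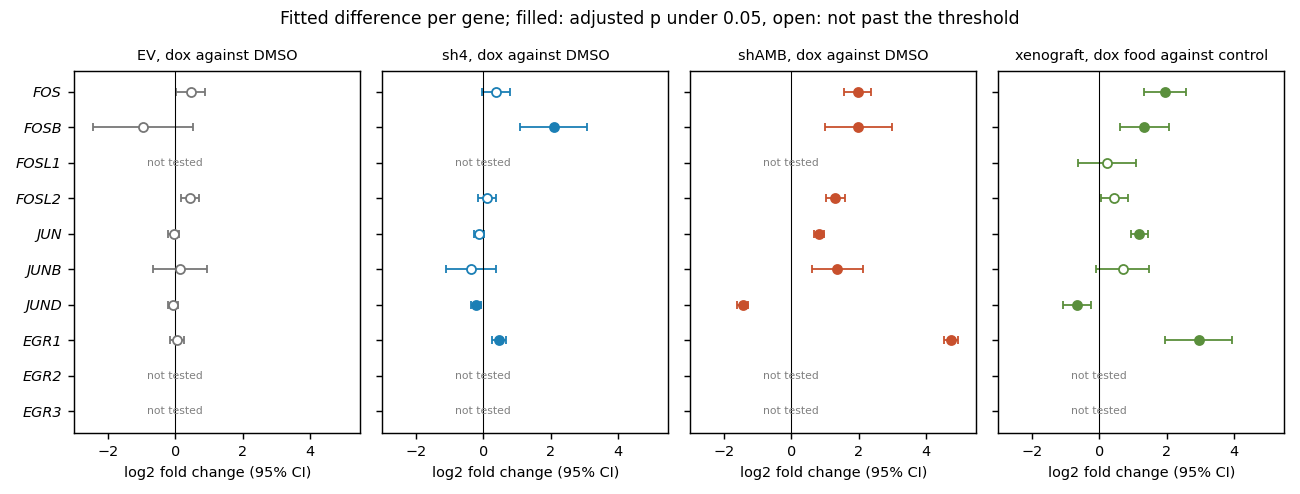
Log2 fold change (horizontal axis, with its 95% confidence interval) of each of the 10 genes for doxycycline against DMSO in the EV, sh4 and shAMB lines and for KO-labelled against control tumors. Filled points passed an adjusted p of 0.05. EGR1 lies farthest to the right in shAMB (4.75) and in the tumors (2.96), and JUND lies left of 0 in all 4 panels, although its sh4 value turned to 0.31 with GC and length trends removed.

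Comparing the lines with each other asks whether a change seen with a hairpin exceeds that of doxycycline alone. The shAMB effect differed from the EV effect for 6 of 7 members, against 45.5% of all genes, and from the sh4 effect for 6 of 7, against 60.9%. FOSB is among those that differed between shAMB and EV. Its difference there was set by the expression filter, so it adds nothing to that count. The sh4 effect differed from the EV effect for 1 of 7, against 32.6%, and this was FOSB, which the expression filter admitted only through the groups where it was high, so that the count says nothing about the members. The comparisons of the lines share control libraries. With GC and length trends removed the higher genes were 36.1% rather than 54.8% of calls for sh4 minus EV and 32.5% rather than 45.7% for sh4 minus shAMB, where the median of all genes moved from -0.09 to -0.21. The same step moved them from 53.3% to 83.7% of calls for sh4 against EV with DMSO and from 72.7% to 47.2% for shAMB against EV with DMSO. Before doxycycline no difference passed, with 0 of 7 members different between sh4 and EV with DMSO (against 1.12% of all genes), and 0 of 7 between shAMB and EV (against 1.52%). At an unadjusted p under 0.05 these counts were 0 and 1, and DESeq2 called 0 in both. The member with the unadjusted p was FOSL2, with a log2 difference of -0.37 between shAMB and EV (SE 0.13, adjusted p = 0.267). Its 3 shAMB libraries with DMSO, at 7.62 to 9.12 CPM, lay below the 3 EV libraries, at 9.38 to 12.7 CPM. With the trends in GC content and length removed this difference was -0.32 (adjusted p = 0.0305).

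FOS (hg38 chr14:75278826-75282230, + strand) encodes the founding partner of JUN in AP-1. In the shAMB line it stood at 1.26, 0.988 and 1.44 CPM (counts scaled to library size with TMM factors) with DMSO and at 4.28, 5.001 and 5.24 CPM with doxycycline. Every doxycycline library lay above every DMSO library. The fitted rise was 1.97 on the log2 scale (SE 0.19, adjusted p = 2.12e-07), or 3.93-fold. It exceeded the EV effect by 1.52 (SE 0.28, adjusted p = 0.000371). In sh4, FOS was at 0.846, 1.20 and 1.00 CPM with DMSO and 1.13, 1.44 and 1.40 CPM with doxycycline, and in EV at 1.03, 0.836 and 1.10 CPM and 1.25, 1.74 and 1.07 CPM. Both pairs of groups overlapped, and the log2 differences of 0.38 (SE 0.20, adjusted p = 0.137) and 0.46 (SE 0.21, adjusted p = 0.672) did not pass. The sh4 effect minus the EV effect was -0.07, with a 95% interval of -0.68 to 0.53. After removal of trends in GC content and length the sh4 value was 0.57 (adjusted p = 0.0214). In the order of levels, shAMB with doxycycline stood alone and the other 5 groups overlapped from each to the next.

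In the tumors FOS was at 4.84, 3.50, 1.81 and 2.93 CPM on control food and at 10.1, 15.4, 14.8 and 10.1 CPM in those labelled KO. No control tumor reached the level of any KO-labelled tumor. The difference was 1.95 on the log2 scale (SE 0.28, adjusted p = 0.000345), or 3.86-fold. The culture and tumor tables were fitted apart and levels between them were not tested.

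FOSB (chr19:45467995-45475179, +), a close relative of FOS, was near the limit of detection in culture. It had 8, 7 and 1 counts in EV with DMSO and 5, 3 and 0 with doxycycline. In sh4 it had 5, 6 and 6 counts with DMSO and 21, 25 and 23 with doxycycline, and in shAMB 6, 2 and 8 and then 30, 26 and 24. The doxycycline libraries of both hairpin lines lay above all others, while those of EV overlapped their controls. The log2 changes were 2.09 in sh4 (SE 0.47, adjusted p = 0.00198), 1.99 in shAMB (SE 0.47, adjusted p = 0.00152) and -0.96 in EV (SE 0.70, adjusted p = 0.672). FOSB had reached the test only through the doxycycline groups of sh4 and shAMB, so a difference from the other groups was set by the filter and these p-values are no support for it. Likewise as a description, the changes exceeded the EV effect by 3.05 in sh4 (SE 0.84, adjusted p = 0.0119) and by 2.96 in shAMB (SE 0.85, adjusted p = 0.00968). Without replicate 1 of EV with DMSO the sh4 excess was 2.75 (adjusted p = 0.0554). FOSB was the only tested member whose effect did not pass in the comparison of sh4 with shAMB, at 0.10 (95% interval -1.36 to 1.55), an interval too wide to show that the hairpins acted alike on it.

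In the tumors FOSB was at 0.277, 0.610, 0.287 and 0.468 CPM on control food and 0.802, 1.495, 0.981 and 0.884 CPM with the KO label. The groups did not overlap. The log2 difference was 1.34 (SE 0.33, adjusted p = 0.00823), or 2.54-fold.

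FOSL1 (chr11:65892049-65900573, -), which encodes FRA1, was hardly detected in culture, with 0 to 11 counts per library. It was not tested there. The counts were 6, 11 and 3 in sh4 with doxycycline and 4, 9 and 4 in shAMB with doxycycline, which overlapped, and 0 to 3 in the other culture groups. In the tumors it had 12, 14, 15 and 8 counts on control food and 24, 17, 11 and 13 with the KO label. These overlapped, and the log2 difference of 0.23 (SE 0.39, adjusted p = 0.669) had a 95% interval of -0.63 to 1.10.

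FOSL2 (chr2:28392448-28417317, +), which encodes FRA2, had the highest level per length of its family in every culture group. In shAMB it was at 9.12, 7.62 and 8.48 CPM with DMSO and 19.3, 20.2 and 22.5 CPM with doxycycline, without overlap. Its log2 rise was 1.30 (SE 0.13, adjusted p = 4.77e-07), or 2.46-fold, and exceeded the EV effect by 0.86 (SE 0.19, adjusted p = 0.00136). In EV it was at 9.38, 10.5 and 12.7 CPM with DMSO and 15.3, 14.3 and 14.4 CPM with doxycycline. These 3 doxycycline libraries also lay above their controls, yet the log2 change of 0.43 (SE 0.13, unadjusted p = 0.00474) had an adjusted p of 0.672. In sh4 the values were 12.4, 10.7 and 10.7 CPM with DMSO and 10.1, 11.6 and 14.7 CPM with doxycycline, with a log2 difference of 0.11 (SE 0.13, adjusted p = 0.544). The highest of these was replicate 3 of sh4 with doxycycline. The sh4 calls over all genes rose from 6091 of 14905 to 8050 of 15069 on leaving out this library. Without it the sh4 change was -0.05 (adjusted p = 0.731), and the sh4 effect minus the EV effect moved from -0.33 (adjusted p = 0.184) to -0.49 (adjusted p = 0.0216).

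In the tumors FOSL2 was at 9.75, 14.8, 13.0 and 12.46 CPM on control food and 20.0, 17.9, 18.4 and 11.96 CPM with the KO label. Replicate 4 of the KO-labelled tumors lay among the controls and the other 3 above them. The log2 difference of 0.45 (SE 0.18, adjusted p = 0.0669) did not pass. It passed without that tumor (0.58, adjusted p = 0.00927), in DESeq2 (0.44, adjusted p = 0.0489) and with trends in GC content and length removed (0.38, adjusted p = 0.0218).

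**Figure D2:**
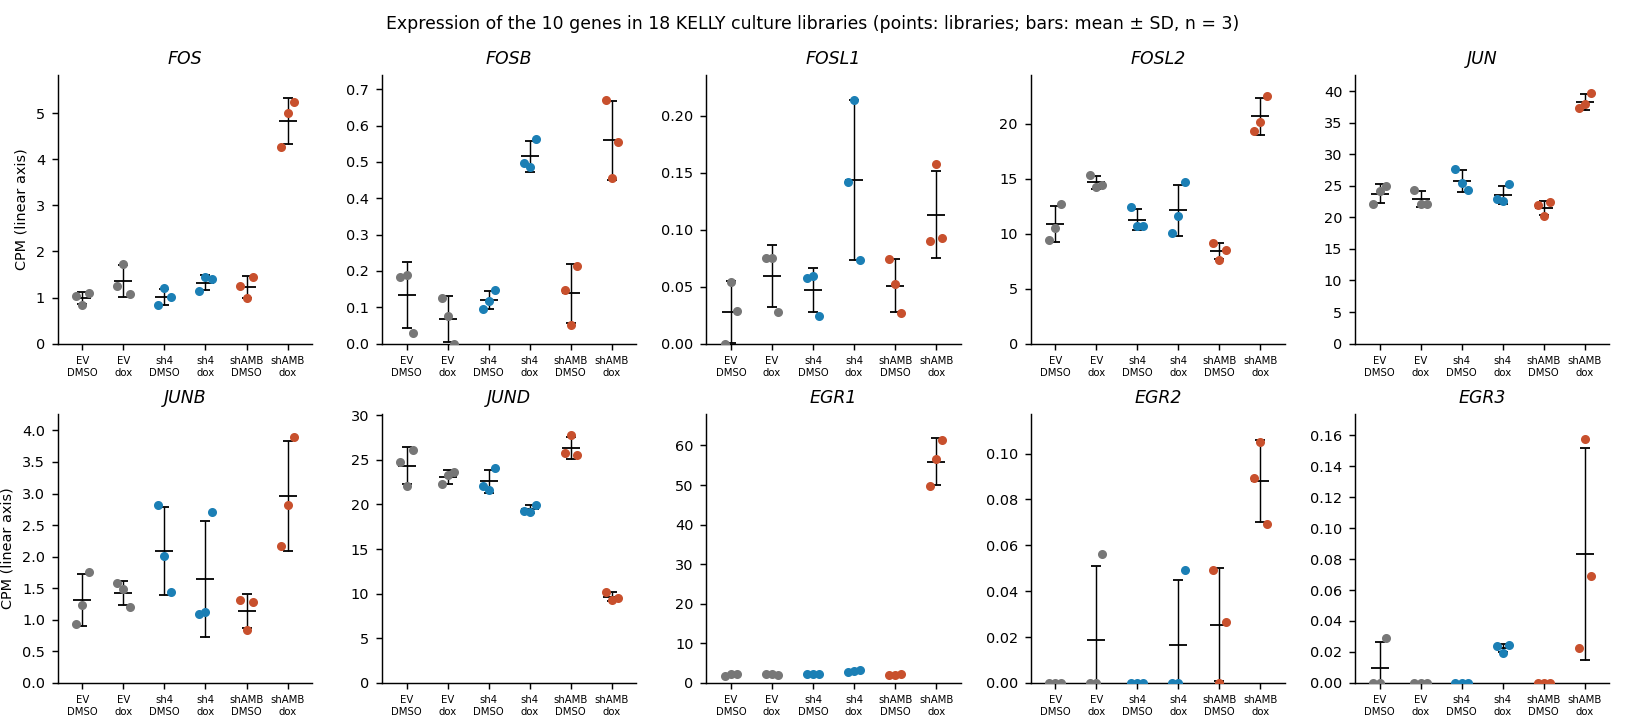
Expression in CPM (linear vertical axes that differ between panels) of each of the 10 genes in the 18 culture libraries, by line and treatment, with points for libraries and bars for mean ± SD over 3. The shAMB doxycycline libraries of EGR1, at 49.7 to 61.4 CPM, lie far above all other groups, and those of JUND, at 9.27 to 10.2 CPM, below them.

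JUN (chr1:58776845-58784048, -) encodes the AP-1 subunit that FOS proteins bind and that also pairs with itself. In shAMB it was at 21.9, 20.3 and 22.4 CPM with DMSO and at 37.3, 37.9 and 39.6 CPM with doxycycline. All 3 doxycycline libraries were above every other culture library. The rise was 0.83 on the log2 scale (SE 0.07, adjusted p = 5.68e-08), or 1.78-fold, and exceeded the EV effect by 0.88 (SE 0.10, adjusted p = 3.31e-06). With GC and length trends removed the rise was 0.47. In sh4 JUN was at 27.7, 25.5 and 24.3 CPM with DMSO and 22.8, 22.6 and 25.3 CPM with doxycycline. These overlapped, at a log2 difference of -0.13 (SE 0.07, adjusted p = 0.140), which became -0.19 (adjusted p = 0.0406) without replicate 3 of sh4 with doxycycline. The EV difference was -0.05 (SE 0.07, adjusted p = 0.728). The sh4 effect minus the shAMB effect was -0.96 (SE 0.10, adjusted p = 8.66e-07).

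In the tumors JUN was at 11.9, 12.7, 13.5 and 14.6 CPM on control food and 27.2, 33.3, 31.3 and 28.3 CPM with the KO label. The lowest KO-labelled tumor was above the highest control. The log2 difference was 1.19 (SE 0.11, adjusted p = 2.94e-05), or 2.28-fold.

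JUNB (chr19:12791486-12793315, +), which can hold back JUN at some targets, varied more between replicates than JUN. In shAMB it was at 1.31, 0.832 and 1.28 CPM with DMSO and 2.17, 2.82 and 3.90 CPM with doxycycline, without overlap. The rise was 1.37 on the log2 scale (SE 0.36, adjusted p = 0.00326), and 0.55 with GC and length trends removed. The excess over the EV effect was 1.24 (SE 0.52, adjusted p = 0.0619), with a 95% interval of 0.14 to 2.34. It passed without replicate 1 of EV with DMSO (1.44, adjusted p = 0.0412), without replicate 1 of shAMB with doxycycline (1.42, adjusted p = 0.0422), with only the compared groups fitted (1.17, adjusted p = 0.02001) and with GC and length trends removed (0.63, adjusted p = 0.0400). The other line pairs gave -1.74 for sh4 minus shAMB (SE 0.50, adjusted p = 0.00701) and -0.51 for sh4 minus EV (adjusted p = 0.460). JUNB overlaps HOOK2 on the opposite strand over 14.2% of its exon bases, and whether counting used the strand is not stated, so that its counts may hold reads of HOOK2.

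In sh4 JUNB was at 2.83, 2.01 and 1.44 CPM with DMSO and at 1.09, 1.13 and 2.70 CPM with doxycycline. The third doxycycline library was the high one. The log2 difference was -0.37 (SE 0.35, adjusted p = 0.409), and -0.92 (adjusted p = 0.0221) without that library. In EV it was at 0.935, 1.24 and 1.76 CPM with DMSO and 1.58, 1.48 and 1.21 CPM with doxycycline, with a log2 difference of 0.13 (adjusted p = 0.868). The tumors were at 0.555, 1.33, 1.25 and 1.46 CPM on control food and 2.44, 2.20, 1.93 and 0.884 CPM with the KO label. Here again replicate 4 of the KO-labelled tumors lay among the controls, and the log2 difference of 0.69 (SE 0.36, adjusted p = 0.146) became 0.92 (adjusted p = 0.0312) without it.

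JUND (chr19:18279694-18281622, -), known as the steadier and more growth-restraining subunit, was the member that fell. In shAMB it was at 25.8, 27.8 and 25.5 CPM with DMSO and 10.2, 9.27 and 9.48 CPM with doxycycline. The 3 doxycycline libraries were the lowest of all 18. The log2 change was -1.45 (SE 0.07, adjusted p = 1.18e-10), or 2.73-fold lower, and it lay below the EV effect by 1.37 (SE 0.10, adjusted p = 2.93e-08, difference -1.37). With GC and length trends removed the shAMB change of JUND was -2.64, so its size depended on the processing. In sh4 it was at 22.1, 21.6 and 24.1 CPM with DMSO and 19.3, 19.1 and 20.0 CPM with doxycycline, without overlap, a log2 change of -0.22 (SE 0.07, adjusted p = 0.0205). That call depended on the libraries and on the fit. The adjusted p was 0.0874, 0.0542 and 0.0678 without replicate 3 of sh4 with DMSO or replicate 1 or 2 of sh4 with doxycycline, and 0.0971 with only the sh4 groups fitted, while removal of GC and length trends turned the value to 0.31 (adjusted p = 0.348). The sh4 effect did not pass against the EV effect (-0.14, adjusted p = 0.287) and differed from the shAMB effect by 1.23 (SE 0.10, adjusted p = 5.79e-08). In EV the groups overlapped (-0.08, SE 0.07, adjusted p = 0.672).

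In the tumors JUND was at 16.8, 13.3, 15.5 and 16.1 CPM on control food and at 6.43, 12.7, 10.6 and 9.67 CPM with the KO label. All KO-labelled tumors lay below all controls. The log2 difference was -0.65 (SE 0.19, adjusted p = 0.0180), or 1.57-fold lower, and -0.87 (adjusted p = 0.0842) with GC and length trends removed.

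**Figure D3:**
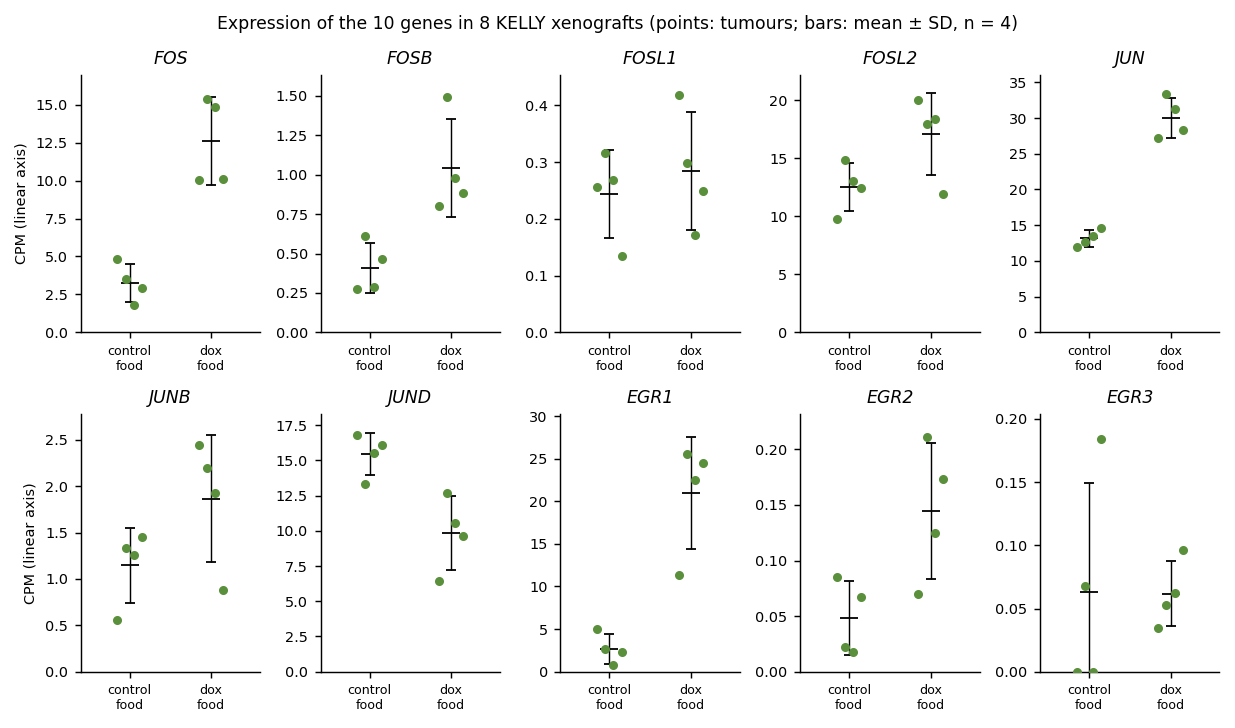
Expression in CPM (linear vertical axes that differ between panels) of each of the 10 genes in 4 tumors on control food and 4 KO-labelled tumors on doxycycline food, with points for tumors and bars for mean ± SD. FOS, FOSB, JUN and EGR1 are higher in every KO-labelled tumor than in any control, and JUND is lower in every one. Of all tested genes 41.1% changed between these groups, and how many of them separated in this way was not counted.

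EGR1 (chr5:138465479-138469303, +) encodes the zinc finger factor most often used as a readout of MAP kinase signaling. With DMSO it was at 1.85, 2.27 and 2.13 CPM in EV, at 2.15, 2.24 and 2.28 CPM in sh4 and at 2.07, 2.03 and 2.14 CPM in shAMB. EV with doxycycline, at 2.20, 2.16 and 2.11 CPM, overlapped all of these. In shAMB with doxycycline it was at 49.7, 56.6 and 61.4 CPM. The change was 4.75 on the log2 scale (SE 0.10, adjusted p = 2.22e-14), or 26.9-fold. It exceeded the EV effect by 4.69 (SE 0.14, adjusted p = 2.44e-12), and the sh4 effect minus the shAMB effect was -4.29 (SE 0.13, adjusted p = 1.95e-12).

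In sh4 with doxycycline EGR1 was at 2.86, 3.09 and 3.22 CPM, between the shAMB level and all the rest, without overlap on either side. The log2 change was 0.46 (SE 0.09, adjusted p = 0.00108), or 1.37-fold. It exceeded the EV effect by 0.40 (95% interval 0.11 to 0.70, adjusted p = 0.0545), which missed the threshold. That difference passed with DESeq2's size factors in edgeR (0.42, adjusted p = 0.0451), with GC and length trends removed (0.49, adjusted p = 0.0127), without replicate 1 of EV with DMSO (0.49, adjusted p = 0.0340) and without replicate 1 of sh4 with doxycycline (0.45, adjusted p = 0.0467). The EV effect was 0.06 (SE 0.10, adjusted p = 0.816). For EGR1 the reported p-values of this effect and of its difference from sh4 were larger than their SE implies. The SE and the interval are therefore too narrow for them.

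In the tumors EGR1 was at 5.06, 2.71, 0.806 and 2.27 CPM on control food and at 11.3, 25.5, 22.5 and 24.5 CPM with the KO label. The first KO-labelled tumor was the lowest of its group and still above the highest control. The log2 difference was 2.96 (SE 0.45, adjusted p = 0.000505), or 7.77-fold. Of the members, EGR1 had the largest log2 change in both shAMB and the tumors.

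EGR2 (chr10:62811996-62819167, -) and EGR3 were too rare for a test in either table. EGR2 had 0 to 2 counts in the culture libraries other than shAMB with doxycycline, where it had 4, 6 and 3, and it had 4, 1, 1 and 4 counts in control tumors and 4, 12, 8 and 9 in KO-labelled ones. EGR3 had 1, 9 and 3 counts in shAMB with doxycycline, 1 in each library of sh4 with doxycycline, and 1 in a single library of the remaining culture groups. Without the expression filter EGR3 passed in shAMB (adjusted p = 0.0145) on these 13 counts against 0. A count of 0 allows up to 3 counts in a library, which covers counting error only. In the tumors EGR3 had 0, 3, 0 and 11 counts on control food and 2, 3, 4 and 5 with the KO label.

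Levels can be compared between genes only per length, for which the deposited TPM values were used as shares of the summed level of a family, without a test. In the JUN family the ranking of JUND and JUN turned over. JUND made up 64.4% to 69.1% of the family in shAMB with DMSO and 26.2% to 30.3% with doxycycline, while JUN went from 28.6% to 32.0% to 62.0% to 63.5%. The summed level of the family was 43.99 ± 1.02 TPM and 43.3 ± 3.2 TPM (SD, n = 3) with DMSO and with doxycycline. In sh4 with doxycycline JUND stayed at 53.7% to 57.7% of the family, and in EV with doxycycline at 59.0% to 63.0%. In the tumors JUND made up 60.7% to 69.6% on control food and 26.3% to 37.4% with the KO label, and JUN 27.9% to 32.7% and 55.5% to 62.9%.

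In the FOS family FOSL2 made up 73.3% to 87.1% of the summed level in the culture groups other than shAMB with doxycycline. There it made up 65.5% to 67.6%, and FOS 28.9% to 31.3%. The share of FOSB was highest in sh4 with doxycycline, at 3.30% to 4.13%. In the tumors FOS made up 19.8% to 46.1% of the family on control food and 46.7% to 59.3% with the KO label, where it was the leading gene in 3 of 4 tumors. EGR1 made up at least 93.5% of the EGR family in every library.

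**Figure D4:**
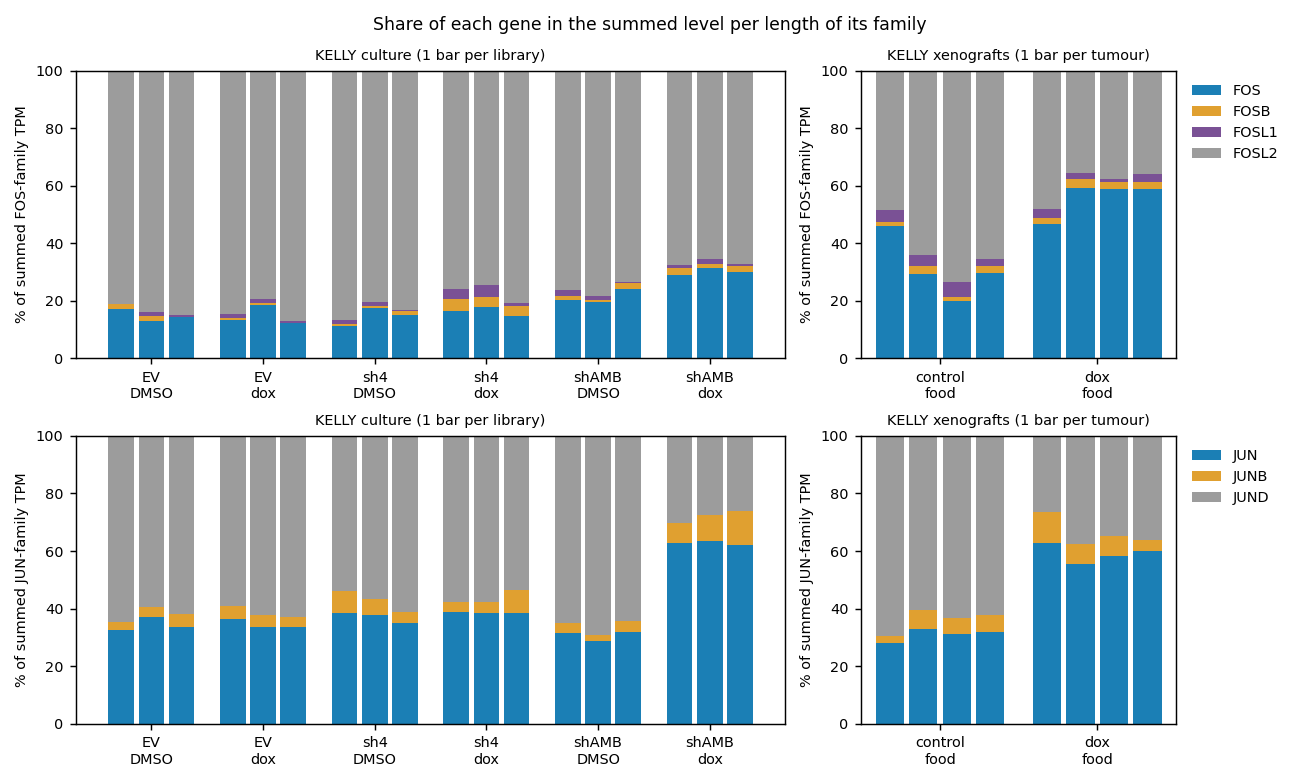
Share of each gene in the summed TPM of the FOS family (top) and the JUN family (bottom), in percent, with 1 bar per culture library (left) or tumor (right). JUN takes over from JUND as the largest part of the JUN family in shAMB with doxycycline (62.0% to 63.5%) and in the KO-labelled tumors (55.5% to 62.9%).

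Other genes of these pathways were read from 8 lists chosen by hand with earlier results of these data known. In EV none of the 147 tested genes of the lists that are not members changed (13 had an unadjusted p under 0.05, and DESeq2 called 0). Of the list of other immediate early genes, 11 of 38 rose and 5 fell in sh4, 25 rose and 6 fell in shAMB, and in the tumors 20 of 37 rose and 1 fell. That was 42.1%, 81.6% and 56.8% of the list, where 40.9%, 66% and 41.1% of all tested genes changed, so that the sh4 share was near that of all genes. The median log2 changes of the list were 0.09, 0.60 and 0.58, and those of all tested genes -0.00, 0.10 and 0.02. The shares and medians of all genes hold for each list that follows. With only the sh4 groups fitted, 10 rather than 16 of these genes changed in sh4. All genes moved there too, with 3727 of 14435 changed rather than 6091 of 14905. The 24 named genes below had log2 changes of -0.30 to 0.47 in EV, with no adjusted p under 0.672.

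The rule named 3 of these genes for each comparison. For sh4 they were NR4A2, an orphan nuclear receptor, BTG2, an antiproliferative gene, and GEM, a small GTP-binding protein. NR4A2 rose in sh4 from 1.29 to 1.49 CPM to 3.45 to 4.03 CPM (log2 change 1.47, adjusted p = 1.55e-07), and it rose by 0.61 in shAMB and by 0.84 in the tumors (adjusted p = 0.0288). BTG2 rose by 1.28 in sh4, fell by 0.25 in shAMB and rose by 0.55 in the tumors. GEM fell by 0.98 in sh4, from 20.4 to 22.9 CPM to 10.9 to 11.3 CPM, and rose by 0.72 in shAMB and 2.08 in the tumors. The tumor call of NR4A2 was lost in 5 of 8 cases when 1 tumor was left out, those without control replicate 2, 3 or 4 or KO-labelled replicate 2 or 3, with adjusted p up to 0.0917.

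For shAMB and the tumors the named genes were ARC, a synaptic protein induced by activity, CSRNP1, a nuclear protein, DUSP2, a MAP kinase phosphatase, NPAS4, an activity-dependent factor, and IER3, an early response gene. IER3 overlaps HCG20 and IER3-AS1 on the opposite strand over 38.9% of its exon bases and CSRNP1 another gene over 6.81%, so that their counts may hold reads of these. ARC was at 0.780 to 1.36 CPM in shAMB with DMSO and 11.7 to 16.8 CPM with doxycycline (log2 change 3.78, adjusted p = 1.00e-07), and at 1.11 to 2.41 CPM and 12.48 to 25.2 CPM in the tumors (3.46, adjusted p = 1.26e-05). CSRNP1 rose by 2.75 and 2.60, DUSP2 by 1.95 and 1.04, and IER3 by 1.68 and 2.74 in shAMB and the tumors. NPAS4 differed from these. It was at 0.260 to 0.419 CPM and 0.227 to 0.346 CPM in shAMB with DMSO and with doxycycline (-0.23, adjusted p = 0.629), and at 0.158 to 0.287 CPM and 1.46 to 3.06 CPM in the tumors (3.18, adjusted p = 3.65e-05). NPAS4 reached the mean of 1 CPM for being named only through the KO-labelled tumors. The expression filter may have admitted it there in the same way, so its tumor p-value is given as a description. In sh4 DUSP2 rose by 0.88, while ARC (-0.33), CSRNP1 (-0.39), NPAS4 (0.58) and IER3 (0.08) did not pass. With only the sh4 groups fitted, DUSP2 had an adjusted p of 0.0563. Without replicate 3 of sh4 with doxycycline ARC and CSRNP1 were at -0.96 (adjusted p = 0.00403) and -0.67 (adjusted p = 0.00259), and NPAS4 passed without replicate 1 of that group (0.92, adjusted p = 0.0265).

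The list of ERK pathway feedback genes holds genes that ERK signaling switches on and genes that restrain it, and not every gene does both. It had more members higher than lower among those that passed. Of 18, 10 rose and 3 fell in sh4, 13 rose and 2 fell in shAMB, and 12 rose and 2 fell in the tumors, with median log2 changes of 0.28, 0.65 and 0.69. Of all tested genes 22.9%, 37.6% and 21.2% rose, and 72.2%, 83.3% and 77.8% of the list changed against 40.9%, 66% and 41.1% of all genes. With DMSO, 4 of the 18 were already higher in shAMB than in EV (22.2%, against 1.52% of all genes different). In sh4 with DMSO 1 was higher than in EV (5.56%, against 1.12%). DUSP5, an ERK phosphatase, rose by 1.79 in shAMB and 2.48 in the tumors, and was at 0.08 in sh4 (adjusted p = 0.645). ETV4, an ETS factor, rose by 2.39 and 1.37, and was at 0.07 in sh4 (adjusted p = 0.801). RASA2, a RAS GTPase-activating protein, rose by 1.25 in sh4 and fell by 0.76 in shAMB and by 0.39 in the tumors, the last with an adjusted p of 0.0628 without replicate 3 of the KO-labelled tumors. With only the sh4 groups fitted, 8 of these genes changed in sh4, where 3727 of 14435 genes did.

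Among 25 MAP kinases and activating kinases 8 rose and 3 fell in sh4, 16 rose and 3 fell in shAMB, and 8 rose and 3 fell in the tumors. The 44% of the list that changed in sh4 and in the tumors was near the share of all genes (40.9% and 41.1%), and in shAMB it was 76% against 66%. Without replicate 3 of sh4 with doxycycline 17 rather than 11 changed in sh4, where the calls over all genes rose from 6091 to 8050. In the tumors 6 changed without control replicate 3 or 4 or KO-labelled replicate 2 or 3, and 7 without control replicate 1, without a filter or with the replicate block. The tumor calls over all genes were 4961 to 5502 in the fits with 6 and 4929 to 6607 in those with 7, rather than 6555. MAPK8, which encodes JNK1, a kinase of JUN, rose by 0.87, 0.72 and 1.02 in sh4, shAMB and the tumors. MAPK13, a p38 kinase, rose by 0.57, 1.58 and 1.77. MAPK12, another p38 kinase, shares 29.7% of its exon bases with other annotated genes on its own strand and 5.95% on the other, which makes its counts uncertain. It rose by 1.69 in shAMB and was at -0.35 in sh4 (adjusted p = 0.465) and 0.90 in the tumors (adjusted p = 0.0767). Calls turned on single libraries here as well. MAPK13 missed the threshold in sh4 without replicate 2 of sh4 with DMSO (0.45, adjusted p = 0.0731) or with doxycycline (0.48, adjusted p = 0.0655) or with only the sh4 groups fitted (adjusted p = 0.0893), and MAPK12 passed in sh4 without replicate 3 with doxycycline (-0.97, adjusted p = 0.0166) and in the tumors without KO-labelled replicate 4 (1.14, adjusted p = 0.00872).

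The 18 tested upstream regulators of transcription were mixed, with 6 higher and 3 lower in sh4, 7 higher and 3 lower in shAMB and 3 higher and 3 lower in the tumors. These were 50%, 55.6% and 33.3% of the list, against 40.9%, 66% and 41.1% of all genes. With only the sh4 groups fitted, 5 changed in sh4, where 3727 of 14435 genes did. ELK4, a partner of serum response factor at CArG boxes, rose by 1.25 in sh4 and 0.51 in the tumors and was at 0.13 in shAMB (adjusted p = 0.152). The tumor call of ELK4 was lost without control replicate 3 or 4 or KO-labelled replicate 2 (adjusted p up to 0.0570). CRTC1, a coactivator of CREB, rose by 0.87 in shAMB, a value that turned to -0.088 (adjusted p = 0.334) with GC and length trends removed. It was at -0.34 in sh4, or -0.68 (adjusted p = 0.0144) without replicate 3 with doxycycline, and at 0.40 in the tumors. TCF3, an E protein, fell by 0.64 in the tumors, and was at -0.09 in sh4 and -0.08 in shAMB. Without replicate 3 of sh4 with doxycycline TCF3 was at -0.29 (adjusted p = 0.0123), and with GC and length trends removed the shAMB value was -0.82 (adjusted p = 1.45e-08).

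Of 16 tested dimerization partners with leucine zippers 4 rose and 1 fell in sh4 and 7 rose and 3 fell in shAMB, and in the tumors 4 of 18 rose and 2 fell. The shares, 31.2%, 62.5% and 33.3%, lay below those of all genes. Without replicate 3 of sh4 with doxycycline 9 rather than 5 changed in sh4, without replicate 2 of shAMB with DMSO 6 rather than 10 in shAMB, and with the replicate block 3 rather than 6 in the tumors. The calls over all genes moved the same way in these fits, from 6091 to 8050, from 9840 to 8816 and from 6555 to 4929. BATF3, an AP-1 factor of the BATF group, rose by 2.24 in shAMB and 1.83 in the tumors. It was at -0.42 in sh4 (adjusted p = 0.136), or -0.61 (adjusted p = 0.0348) without replicate 3 with doxycycline. JDP2, a JUN partner that represses AP-1 sites, rose by 0.87 in sh4 and 0.71 in the tumors and was at 0.00 in shAMB. The tumor call of JDP2 was lost in 5 of 8 cases, those without control replicate 1 or 4 or KO-labelled replicate 1, 2 or 3 (adjusted p up to 0.0943), and also without an expression filter (0.64, adjusted p = 0.0561) and with the replicate block (adjusted p = 0.0715), and with GC and length trends removed the shAMB value was -0.51 (adjusted p = 0.00191).

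Of the EGR co-repressors and targets 5 of 14 rose and 1 fell in sh4, 9 rose and 2 fell in shAMB, and 4 of 15 rose and 1 fell in the tumors. These were 42.9%, 78.6% and 33.3% of the list, against 40.9%, 66% and 41.1% of all genes. With DMSO, 2 of the 14 were already lower in shAMB than in EV (14.3%, against 1.52% of all genes different). F3, tissue factor, rose by 1.02 in sh4 and was at -0.21 in shAMB (adjusted p = 0.212) and -0.15 in the tumors (adjusted p = 0.490). Of the AP-1 target genes 5 of 17 rose and 6 fell in sh4, 8 rose and 3 fell in shAMB, and 5 of 20 rose and 4 fell in the tumors, with median log2 changes of -0.06, 0.38 and 0.00. That was 64.7%, 64.7% and 45% of the list. With only the sh4 groups fitted 6 rather than 11 changed in sh4, where 3727 of 14435 genes did rather than 6091 of 14905. LIF, a cytokine, rose by 0.95, 1.54 and 1.57 in sh4, shAMB and the tumors. S100A4, a calcium-binding protein, rose by 1.16 in shAMB and 2.19 in the tumors and was at -0.17 in sh4 (adjusted p = 0.628).

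Of 16 genes of RNA decay, which shorten the life of early transcripts, 7 rose and 3 fell in sh4, 6 rose and 5 fell in shAMB, and 6 rose and 1 fell in the tumors, which was 62.5%, 68.8% and 43.8% of the list against 40.9%, 66% and 41.1% of all genes. ZFP36, which binds AU-rich elements, rose by 1.17 in shAMB and 1.65 in the tumors, and was at 0.21 in sh4 (adjusted p = 0.248). Its relative ZFP36L2, whose exons overlap another gene on the opposite strand over 22.4% of their bases, rose by 0.48, 0.21 and 0.60 in sh4, shAMB and the tumors. The shAMB call of ZFP36L2 did not hold with DESeq2's size factors (0.14, adjusted p = 0.147), in DESeq2 (0.13, adjusted p = 0.186), without a filter (0.16, adjusted p = 0.0736), with GC and length trends removed (0.079, adjusted p = 0.430) or without replicate 1 of shAMB with doxycycline (0.18, adjusted p = 0.0618). Its tumor call was lost in 6 of 8 cases, and held only without control replicate 2 or KO-labelled replicate 1 (adjusted p up to 0.0756 in the others).

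**Figure D5:**
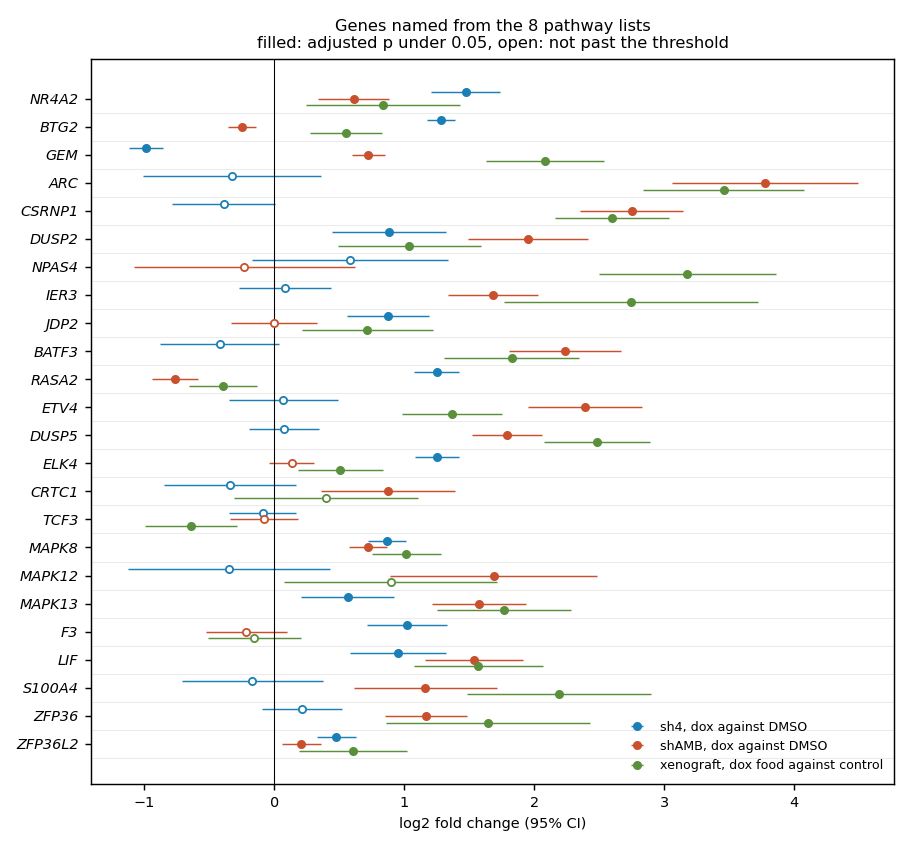
Log2 fold change (horizontal axis, with its 95% confidence interval) of the 24 genes named from the 8 lists, for doxycycline against DMSO in sh4 and shAMB and for KO-labelled against control tumors. Filled points passed an adjusted p of 0.05. ARC and CSRNP1 lie far to the right in shAMB and the tumors only, NPAS4 in the tumors only, and GEM on opposite sides of 0 in sh4 (-0.98) and shAMB (0.72).

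The genes most alike in pattern to FOS, JUN and EGR1 were sought by Pearson correlation of log2 CPM over the 18 culture libraries among 12709 tested genes of at least 1 CPM. The libraries share 6 groups, and shAMB with doxycycline stands apart for all 3 genes, so that r is given as a description without a test. Nearest to FOS were CHRNA3 (r = 0.966), PNPLA3 (0.966) and MICAL2 (0.962), with r of 0.9204, 0.910 and 0.862 over the 8 tumors. Those nearest to JUN were IRF2BPL (0.983), CA11 (0.982) and ITGA3 (0.981), with 0.977, 0.912 and 0.923 in the tumors. For EGR1 they were ARHGAP26 (0.994), DUSP10 (0.992) and ZNF622 (0.990), with 0.940, 0.934 and 0.833 in the tumors. Like EGR1, ARHGAP26 had its highest culture level in shAMB with doxycycline and the next in sh4 with doxycycline, at means of 96.1 and 30.5 CPM against 24.3 to 26.6 CPM elsewhere.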

How the data were processed

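The members and the gene lists were chosen with earlier results of these data known. Per the labels, total RNA was prepared with a stranded kit and read as pairs, while the labels also name polyA RNA. The submitters' processing notes name hg38, STAR, SAMtools and RSEM. The methods of the study describe alignment and RSEM only for mouse ganglia, and the use of strand and the removal of mouse reads are not given in the sources used here. The authors deposited RSEM expected counts, of which 91.8% (culture) and 91.0% (tumors) were whole, and TPM, here used only for shares within a family, for 26485 genes. Columns of per-sample values not used numbered 0. Groups came from the sample titles, since the genotype labels of the hairpin lines carry running numbers.

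Expected counts were rounded and analysed in edgeR 4.0.16 (R 4.3.3) after filterByExpr, which kept 14905 genes in culture and 15960 in the tumors, with TMM factors of 0.974 to 1.07 and 0.936 to 1.09. The quasi-likelihood F test was two-sided, and Benjamini-Hochberg adjustment took in every tested gene. A model with group means served the 18 culture libraries and a separate one the 8 tumors, in 9 comparisons. SE is the log2 change divided by the root of F. The reported p-value can be larger than this SE implies, as for EGR1, and the SE and interval are then too narrow. The median biological coefficient of variation was 0.115 in culture and 0.186 in the tumors. The scripts were tested on simulated data. Beside the members and RUNX1T1, the 3 genes of the list of other immediate early genes and the 1 gene of each other list with the largest change past the threshold, at a mean of at least 1 CPM, were named for sh4, shAMB and the tumors, and the 3 genes most correlated with FOS, JUN and EGR1. Alternatives were DESeq2 1.42.0, its size factors in edgeR (RLE), no expression filter, replicate number as a block, removal of trends in GC content and length, fits of the compared groups alone, a log2 change of at least 1, and leaving out each library. CPM per kilobase in place of TPM was added after the data were seen. Counts without molecular identifiers cover counting error only.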

Additional observations from a re-analysis of the deposited data

Results flagged for a closer look

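The effects of doxycycline differed between lines, by a test of the difference itself, for the following members. Against EV, the shAMB effect on the log2 scale was larger by 1.52 for FOS, 2.96 for FOSB, 0.86 for FOSL2, 0.88 for JUN and 4.69 for EGR1, and differed by -1.37 for JUND. The sh4 effect was larger than the EV effect by 3.05 for FOSB. FOSB passed the expression filter only through the doxycycline groups of sh4 and shAMB, so both of its differences from EV were set by the filter and are no evidence. The sh4 effect minus the shAMB effect was -1.59 for FOS, -1.19 for FOSL2, -0.96 for JUN, -1.74 for JUNB, 1.23 for JUND and -4.29 for EGR1. The share of all genes that differed was 45.5%, 32.6% and 60.9% in these comparisons. No member had a tumor that stood apart from the other tumors of its group by Dixon's criterion for 4 values, while groups of 3 were not examined this way.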

How the results depend on the processing

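The counts of all genes changed moved by more than 1.5 times as follows, and the cause was not tested. For EV (14) the count was 27 with GC and length trends removed, 6 with only the compared groups fitted and 0 at a log2 change of at least 1. At that size the counts were 750 of 6091 for sh4, 2662 of 9840 for shAMB, 838 of 4856 for sh4 minus EV, 1892 of 6776 for shAMB minus EV, 3226 of 9078 for sh4 minus shAMB and 2002 of 6555 for the tumors. For sh4 it was 3727 with only the compared groups. For sh4 against EV with DMSO (167) it was 680 with trends removed, 344 in DESeq2, 23 with only the compared groups and 34 at the larger change, and for shAMB against EV with DMSO (227) it was 472, 85 and 40 with trends removed, compared groups and larger change. Leaving out 1 library gave 7 to 14 genes in EV, 4875 to 8050 in sh4, 8816 to 9598 in shAMB, 3753 to 7557 for sh4 minus EV (the highest without sh4 with doxycycline replicate 3), 6081 to 6754 for shAMB minus EV, 8073 to 10064 for sh4 minus shAMB, 75 to 269 and 125 to 188 for the DMSO comparisons and 4961 to 7078 in the tumors.

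Removal of GC and length trends turned the sign of JUNB (-0.075) and EGR1 (-0.016) in EV, JUND (0.31), TCF3 (0.084) and S100A4 (0.074) in sh4, JDP2 (-0.51), CRTC1 (-0.088) and F3 (0.14) in shAMB, and FOS (0.29), JUN (0.11), JUNB (0.0092) and JUND (0.66) for sh4 minus EV. RUNX1T1 in shAMB was at -0.019 with RLE factors, -0.020 in DESeq2 and -0.024 with only the compared groups. JDP2 in shAMB, at 0.00, was at -0.073 with RLE factors, -0.044 without a filter, -0.0727 in DESeq2 and -0.077 with only the compared groups. Leaving out 1 library turned the sign within JUNB (-0.070 to 0.40) and EGR1 (-0.029 to 0.12) in EV, FOSL2 (-0.054 to 0.22), IER3 (-0.011 to 0.23), ETV4 (-0.16 to 0.21), DUSP5 (-0.036 to 0.16), TCF3 (-0.29 to 0.0045), MAPK12 (-0.97 to 0.0023) and S100A4 (-0.54 to 0.051) in sh4, JDP2 (-0.10 to 0.092) in shAMB, FOS for sh4 minus EV (-0.21 to 0.15), FOSB for sh4 minus shAMB (-0.34 to 0.48) and FOSL1 in the tumors (-0.016 to 0.40). Without sh4 with doxycycline replicate 3, 5 rather than 3 members changed in sh4. Calls over all genes rose in that fit as well, from 6091 of 14905 to 8050 of 15069.

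Of the members' results, 280 of 297 kept direction and side of the threshold under the other alternatives and 424 of 448 when 1 library was left out. With GC and length trends removed, 10 rather than 5 zipper partners changed in sh4, where the calls over all 14905 genes rose from 6091 to 7435. Replicate numbers did not pair the samples (correlations of same-numbered deviations -0.603 to 0.374). With replicate as a block the counts were 15 in EV, 5974 in sh4, 9756 in shAMB, 4735, 6617 and 9003 for the differences between lines, 138 and 210 with DMSO and 4929 in the tumors. The block changed no call of a member, and in the tumors it took NR4A2 (adjusted p = 0.0858), JDP2 (0.0715) and RASA2 (0.0630) past 0.05. With GC and length trends removed, CSRNP1 (-0.31), ETV4 (0.26) and ZFP36 (0.49) in sh4, ELK4 (0.17) in shAMB and MAPK12 (0.71) in the tumors passed. Few counts limit FOSB, FOSL1, EGR2 and EGR3.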
